A study of Mus musculus with 13 samples.

Results

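Nucleotide excision repair (NER) removes bulky, helix-distorting lesions from DNA, and 31 genes that encode its recognition, unwinding and incision proteins were followed here through senescence and Fucoidan-FV treatment of mouse embryonic fibroblasts (MEFs). The members were chosen by name, as the genes whose products find the lesion, carry the ubiquitin ligase that acts on it, sense a stalled RNA polymerase II, open the helix, verify the damage and cut the strand. All 31 were among the 57010 genes listed for each library, and all 31 passed the filter on low counts that left 15034 genes for testing. The cells were wild-type (WT) primary MEFs from 3 mice, numbered 4, 5 and 6 in the labels. These numbers recur in each of the 4 groups and were read as shared animals. Control MEFs were untreated. Senescent MEFs had been given etoposide, a topoisomerase II inhibitor that breaks DNA, at 2 µM for 24 h and then kept in normal medium for 5 days. The remaining groups were senescent MEFs given Fucoidan-FV, a polysaccharide rich in sulfate groups that is made by the seaweed Fucus vesiculosus, at 100 µg/mL (FV100) or 300 µg/mL (FV300), with RNA taken after 12 h. No control MEFs received Fucoidan-FV, so its effect was read in senescent cells only. All these cells carry intact Ercc1, and the study also used Ercc1-deficient cells and mice that are not part of these libraries.

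As background, global-genome NER starts when XPC, held by RAD23B and CETN2, binds the distorted helix, with DDB1 and DDB2 handing over ultraviolet photoproducts through the CUL4 ubiquitin ligase. Transcription-coupled NER starts instead at a stalled RNA polymerase II, which ERCC6 (CSB), ERCC8 (CSA), UVSSA and ELOF1 recognise. Both routes meet at TFIIH, whose helicases ERCC3 (XPB) and ERCC2 (XPD) open the helix, after which XPA verifies the lesion, ERCC1-ERCC4 (XPF) cuts on the 5′ side and ERCC5 (XPG) on the 3′ side. The gap is then filled by the replicative polymerases and sealed by a ligase, so this last step shares its genes with DNA replication.

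The 250 bases before the start of the Ensembl canonical transcript of 4 members are printed because these members carry the differences described below: Ercc5 rose in senescent MEFs, Ercc1 and Ercc2 passed the threshold in treated MEFs by at least 1 of 2 tools, and Ddb2 was higher in treated MEFs than in control. The sequences are from GRCm39, 5′ to 3′ along the strand of the gene, and capitals mark the pentamer CCAAT, the letters bound by the factor NF-Y, or its reverse complement ATTGG. Longer annotated transcripts start earlier, by 16 bases for Ercc5, 13 for Ercc1 and 11433 for Ddb2 (whose gene reaches to position 91078878), so the windows of these 3 lie partly or, for Ddb2, wholly inside the annotated gene.
Ercc5, chr1:44186654-44186903, plus strand: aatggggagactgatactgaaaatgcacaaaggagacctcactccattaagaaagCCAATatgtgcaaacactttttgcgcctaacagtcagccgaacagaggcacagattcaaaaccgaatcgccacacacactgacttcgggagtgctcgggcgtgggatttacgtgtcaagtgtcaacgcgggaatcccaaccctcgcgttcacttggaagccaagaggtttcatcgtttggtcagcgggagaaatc
Ercc1, chr7:19075644-19075893, plus strand: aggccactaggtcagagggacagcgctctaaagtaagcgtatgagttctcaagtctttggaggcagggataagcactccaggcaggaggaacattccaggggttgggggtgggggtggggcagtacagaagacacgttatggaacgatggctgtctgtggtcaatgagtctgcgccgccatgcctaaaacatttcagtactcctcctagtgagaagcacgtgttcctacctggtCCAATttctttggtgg
Ercc2, chr7:19115681-19115930, plus strand: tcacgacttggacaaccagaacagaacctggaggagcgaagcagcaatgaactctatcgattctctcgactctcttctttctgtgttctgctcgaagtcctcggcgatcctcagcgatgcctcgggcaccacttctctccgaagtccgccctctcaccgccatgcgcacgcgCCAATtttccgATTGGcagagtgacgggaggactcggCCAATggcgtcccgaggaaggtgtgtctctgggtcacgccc
Ddb2, chr2:91067446-91067695, minus strand: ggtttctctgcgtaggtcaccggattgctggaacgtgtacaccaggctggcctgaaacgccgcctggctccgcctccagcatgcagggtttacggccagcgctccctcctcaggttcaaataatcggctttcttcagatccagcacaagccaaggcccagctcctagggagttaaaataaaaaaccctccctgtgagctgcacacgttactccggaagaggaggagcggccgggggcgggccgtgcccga
The Ercc2 stretch held the pentamer 3 times, those of Ercc5 and Ercc1 held it once each, and that of Ddb2 not at all. On either strand CCAAT stood in the same window of 18 of the 31 members (58.1%) and in 36.3% of the 21603 promoters searched. An E2F word (TTTCCCGC, TTTGGCGC, TTTCGCGC or TTTGCCGC) stood before Rbx1, Elof1 and Polr2a and before 2.30% of all genes, and the NRF1 core GCATGCGC before Elof1 and 2.37% of all genes. The ETS word CCGGAAGT and the YY1 core AAGATGGC were in no member's window, against 2.66% and 1.35% of all windows. Median GC content was 53.2% for the members and for all promoters. These matches describe letters only. Ercc1 (chr7:19075881-19090450) and Ercc2 (chr7:19115931-19129623) are close neighbours on the same strand, with 25480 bases between them.

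Each library held between 22782536 and 31278750 estimated read counts, and the 2 libraries of control mouse 5 were summed as 1 mouse. The labels held: Cdkn1a, the p21 cell cycle inhibitor, ran from 373 to 527 CPM (read counts scaled to a common library size) in control and from 1520 to 1866 CPM in senescent MEFs, and Mki67, a proliferation marker, from 17.2 to 68.1 CPM and from 0.647 to 2.55 CPM. Fibroblast markers summed to between 10590 and 16500 CPM in all samples, while the 5 macrophage, 4 endothelial, 4 epithelial and 4 skeletal muscle markers summed to at most 12.8, 1.99, 2.04 and 0.776 CPM. No count was found in any library of a group for Ckm (control and FV100), Tie1 (senescent and FV300), Myog (senescent) and Myod1 (FV100). The 4 neural markers, mostly Nes, which MEFs also express, summed to between 581.9 and 1096 CPM in control and senescent MEFs and to between 199.2 and 226.4 CPM in both treated groups. Their part in the treated comparisons was not tested, and in bulk RNA fewer cells of a type and less RNA per cell cannot be told apart.

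The library of senescent mouse 6 stood apart from all others. Its long transcripts (over 3395 bases on average) lay 1.31 log2 units lower against its short ones (under 1442 bases) than in the mean sample, while the other 11 samples lay between -0.32 and 0.40. Within that span, control mice 4, 5 and 6 were at -0.32, -0.26 and 0.049, and the treated samples ran from 0.13 to 0.40. Of the 7 members with long transcripts, 5 were lower in senescent mouse 6 than in the mean of mice 4 and 5, and Ercc4 (0.54 on the log2 scale) and Xpc (0.059) were not. Among those lower, Ercc6 was at 7.14 CPM in senescent mouse 6 against 20.1 and 23.1 CPM in senescent mice 4 and 5, Polr2a at 94.8 against 239 and 296 CPM, and Uvssa at 10.2 against 21.03 and 28.9 CPM. Of the 12 short members, 10 were higher in senescent mouse 6, while Rad23b (-0.26) and Cetn2 (-0.023) were not. The largest differences were those of Elof1, at 89.8 against 42.5 and 48.5 CPM, and Ercc1, at 64.8 against 32.2 and 39.5 CPM. Over the 31 members, Spearman's rho between transcript length and the ratio of senescent mouse 6 to the other senescent mice was -0.72, given as a description, since all points share the same libraries. Beside values of single genes that rest on senescent MEFs, the value without this mouse is given where it differed by over 1.5 times or changed a sign or a call. Where a range over several genes is given, the range without this mouse is given instead, and its ends can be other genes.

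**Figure D1:**
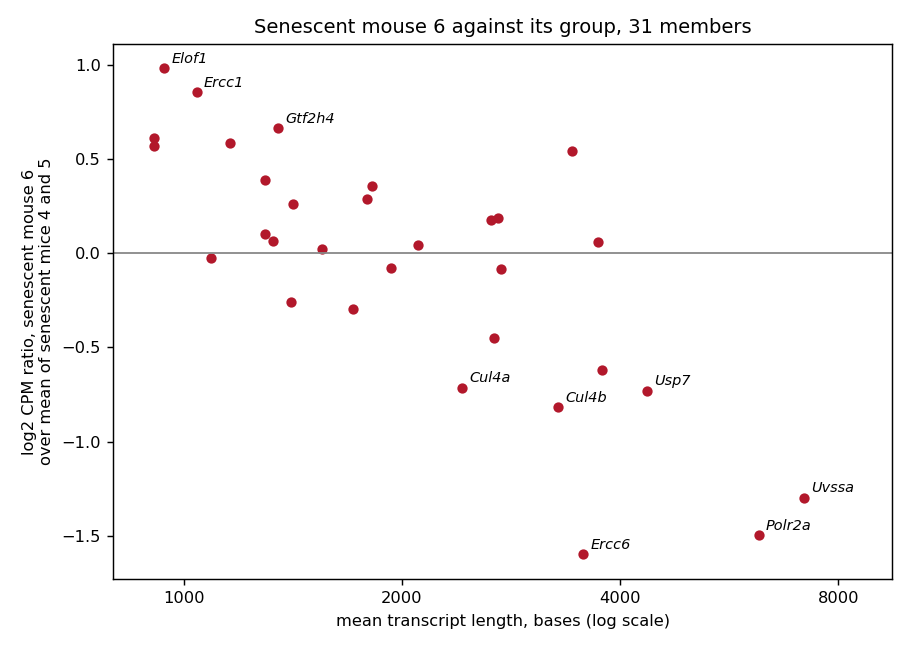
Log2 ratio of CPM in senescent mouse 6 over the mean of senescent mice 4 and 5 (vertical axis) against mean transcript length in bases (horizontal log axis), 1 point per member. Elof1 (0.98) and Ercc1 (0.86) lie highest among short transcripts, and Ercc6 (-1.60), Polr2a (-1.50) and Uvssa (-1.30) lowest among long ones.

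Per length, the members spanned a wide range in control MEFs. The highest was Ddb1, the adaptor of the CUL4 ligase, at 1104 ± 50.5 TPM (a level scaled to transcript length and library size; mean ± SD, n = 3 mice), followed by Rad23b at 277 ± 32.4 TPM. The next 4, Cops5, Rbx1, Elof1 and Cul4a, ran from 158 down to 116 TPM in that order, and the ranges of neighbours over the mice overlapped except those of Rbx1 and Elof1. Xpc itself was at 3.64 ± 0.635 TPM, far under its partner Rad23b, and ranked 29 of 31. Below it were Uvssa at 2.66 ± 1.09 TPM and Ddb2 at 0.828 ± 0.286 TPM, and the ranges of Xpc and Uvssa overlapped while that of Ddb2 lay below both. Here and below, the TFIIH genes are those of its core, with the CDK-activating kinase genes counted apart. Among these core genes, Gtf2h5 (66.7 ± 10.8 TPM) and Gtf2h1 (50.7 ± 13.1 TPM) were highest and Ercc2 (21.5 ± 2.63 TPM) lowest. The range of Ercc2 lay inside that of Gtf2h2. The 3 nuclease genes differed, with Ercc1 at 71.9 ± 12.5 TPM, Ercc5 at 12.4 ± 2.27 TPM and Ercc4, whose product pairs with ERCC1, at 10.8 ± 1.55 TPM, the last 2 with overlapping ranges.

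**Figure D2:**
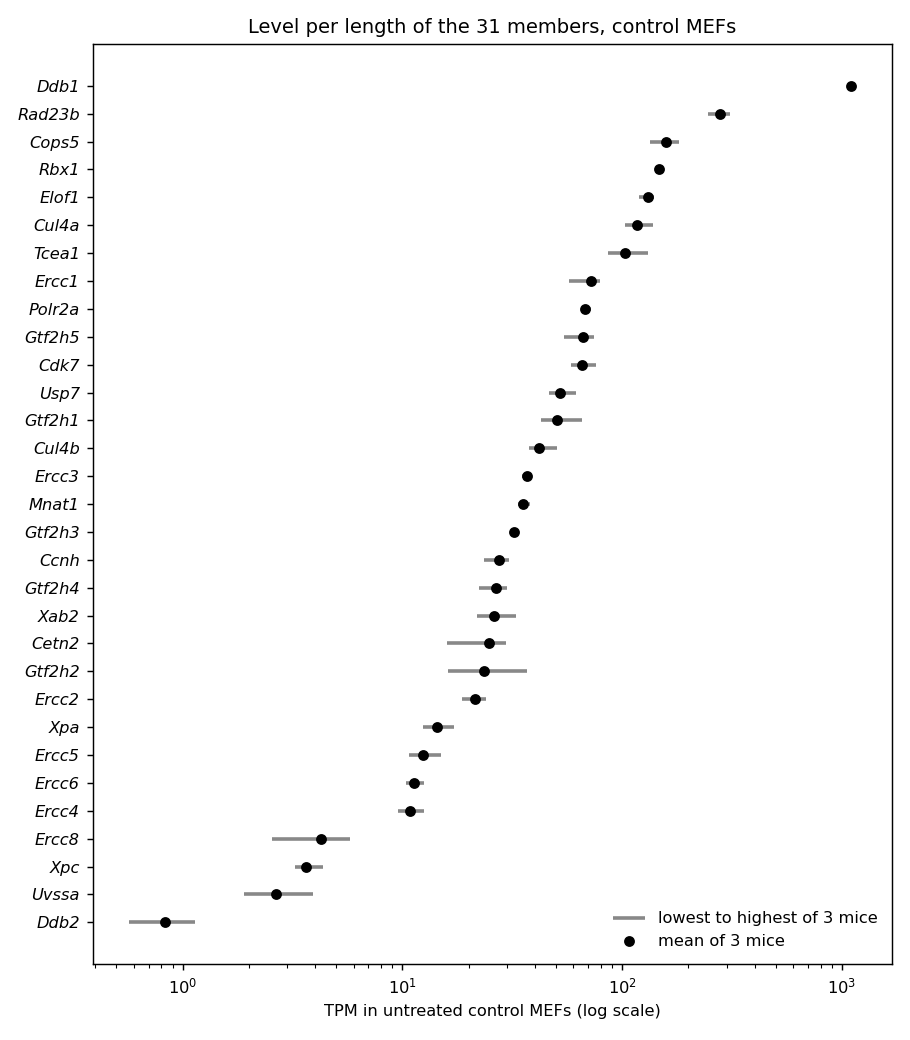
TPM (transcript abundance per length, horizontal log axis) of each member in control MEFs, as the mean of 3 mice (point) with the lowest and highest mouse (line). Ddb1 stands alone at 1104 TPM, and Ddb2 is the lowest at 0.828 TPM.

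The first comparison asked how the pathway stood in senescent MEFs. A single member rose: Ercc5, which encodes the 3′ nuclease XPG. No member fell at the threshold. This is 1 of 31 members higher and 0 lower at an adjusted p under 0.05 by edgeR, while 6.11% of all genes tested were higher and 5.63% lower, and 1 member passed as a differentially expressed gene (DEG, also over 2-fold), against 8.42% of all genes. At an unadjusted p under 0.05 there were 3 members higher and 5 lower in senescent MEFs, where 14.2% and 11.2% of all genes were. DESeq2 called 1 higher (Ercc5) and 1 lower (Ercc2), where it called 9.64% and 7.71% of the genes it tested. The median log2 fold change of the members was -0.07, with 14 above and 17 below 0, and that of all genes tested was 0.07. The median of the members without senescent mouse 6 was -0.14, with 1 member higher (Ercc5) and 1 lower (Elof1).

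Ercc5 was at 33.3, 31.9 and 44.0 CPM in control mice 4, 5 and 6 and at 81.2, 92.6 and 56.7 CPM in the same senescent mice. Every senescent mouse was above every control mouse, and the lowest senescent value was that of mouse 6. The rise was 2.11-fold (log2 fold change 1.08 ± 0.24, SE; adjusted p = 0.00984), and 1.26 on the log2 scale without senescent mouse 6 (adjusted p = 0.000720). Fitting the 2 groups alone left the size at 1.07 but the adjusted p at 0.0645.

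Ercc2, the XPD helicase of TFIIH, was at 38.1, 48.0 and 41.2 CPM in control mice 4, 5 and 6 and at 29.3, 28.7 and 32.8 CPM in senescent mice 4, 5 and 6. All senescent values lay under all control values, with senescent mouse 6 close to the other senescent mice. The log2 fold change of -0.49 ± 0.19 missed the threshold in edgeR (adjusted p = 0.132) and passed it in DESeq2 (-0.50, adjusted p = 0.0214).

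Among the recognition genes no call was made. Xpc, the sensor of global-genome NER, was at 9.35, 9.54 and 13.4 CPM in control and at 12.11, 10.001 and 11.52 CPM in senescent mice 4, 5 and 6, with overlapping groups. Ddb2, the ultraviolet damage receptor and in many cells a p53 target, was at 0.892, 1.28 and 0.705 CPM in control and at 2.91, 0.604 and 2.14 CPM in senescent mice, with mouse 5 the lowest of all 6 samples. Its log2 fold change was 0.97 ± 0.58 (adjusted p = 0.332), from 14 to 91 counts per senescent sample. Rad23b, which holds XPC in place, gave -0.53 (adjusted p = 0.0834), and Ddb1 and Cetn2 gave -0.35 and 0.59.

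Of the genes that sense a stalled polymerase, 7 of 8 had a log2 fold change below 0, with a median of -0.50, and none was called. The median was -0.33 without senescent mouse 6, and 7 of 8 again lay below 0. A fit with offsets for single-transcript share and exonic bases called 4 of the 8 lower (Ercc6, Usp7, Polr2a and Tcea1) and gave a median of -0.48. Its length term was the exonic bases of the whole gene, not the mean transcript length by which senescent mouse 6 stood apart. The share of all genes that this fit called lower is not given here, so the 4 cannot be set beside it. Ercc6, the CSB translocase, was at 30.9, 26.1 and 34.0 CPM in control and at 20.1, 23.1 and 7.14 CPM in senescent mice 4, 5 and 6, so the groups did not overlap and mouse 6 was lowest. Its log2 fold change was -0.85 ± 0.34 (adjusted p = 0.136), and -0.49 without senescent mouse 6 (adjusted p = 0.136). Polr2a, the largest subunit of RNA polymerase II, was at 306, 333 and 360 CPM in control and at 239, 296 and 94.8 CPM in senescent mice. The value of -0.66 ± 0.31 (adjusted p = 0.201) was -0.31 without senescent mouse 6 (adjusted p = 0.138). Elof1, the elongation factor of this route, gave -0.25 with all mice (adjusted p = 0.654) and -0.65 without senescent mouse 6 (adjusted p = 0.0312), the 1 of 16 alternative fits in which it passed the threshold, and it is named here after its values were seen.

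None of the remaining members of the core machinery was called. The CUL4 ligase and signalosome genes ran from -0.23 (Cul4b) to 0.20 (Rbx1) on the log2 scale, the TFIIH genes other than Ercc2 from -0.42 (Gtf2h2) to 0.31 (Ercc3), and the CDK-activating kinase genes from 0.04 (Cdk7) to 0.51 (Ccnh, adjusted p = 0.186). These ranges without senescent mouse 6 were -0.28 (Cops5) to 0.34 (Cul4a), -0.51 (Gtf2h2) to 0.34 (Ercc3) and 0.033 (Cdk7) to 0.48 (Ccnh). In that fit Cul4b gave -0.009 and Rbx1 -0.03. Xpa gave 0.43, and 0.23 without that mouse, and Ercc4 gave 0.055 and -0.14. Ercc1 was at 54.9, 51.4 and 32.1 CPM in control and at 32.2, 39.5 and 64.8 CPM in senescent mice 4, 5 and 6, a difference of -0.02 ± 0.31 (adjusted p = 0.981). Mouse 6 was the lowest control and the highest senescent sample, and without senescent mouse 6 the value was -0.36 (adjusted p = 0.430).

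**Figure D3:**
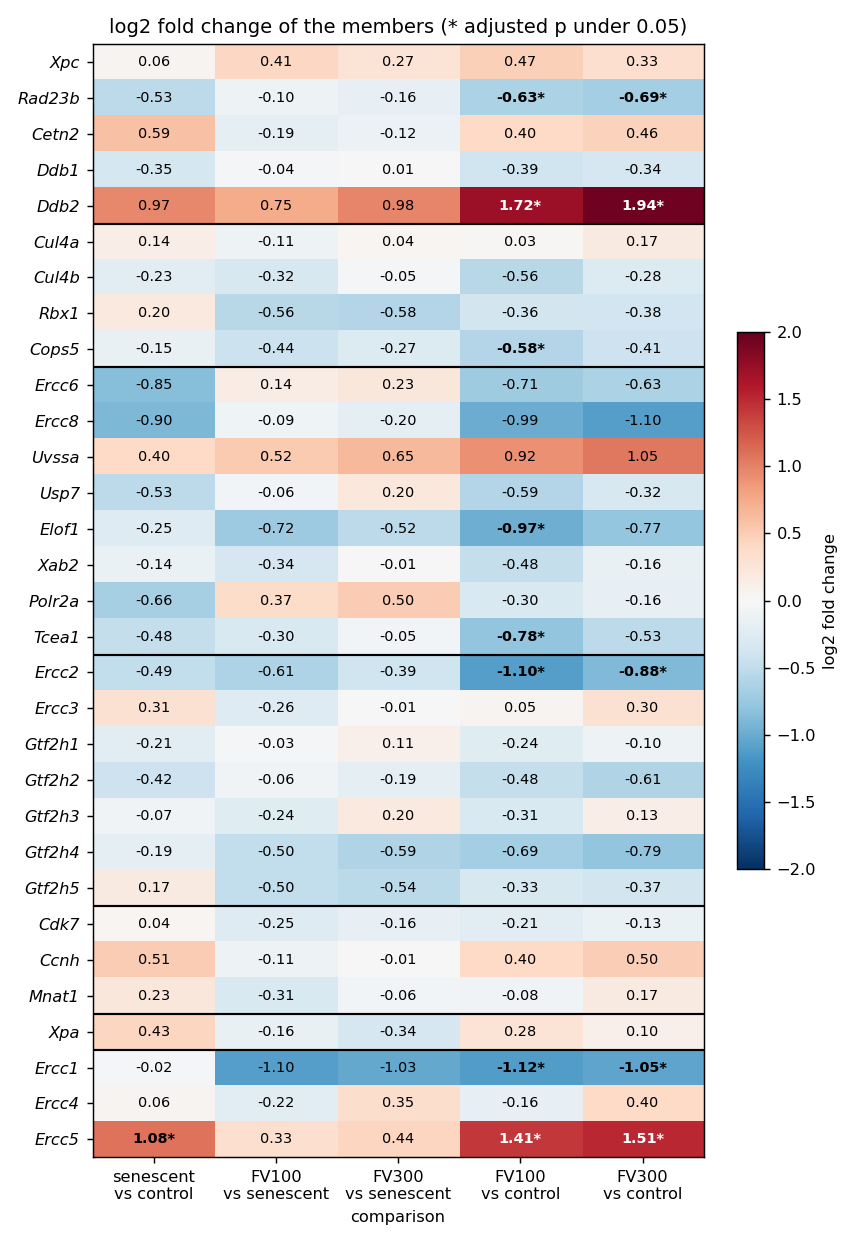
Log2 fold change of each of the 31 members (rows, in the order recognition, ubiquitin ligase, transcription-coupled sensing, TFIIH, CDK-activating kinase, Xpa and incision, parted by lines) in 5 comparisons (columns), with red higher and blue lower in the first-named group. Asterisks mark an adjusted p under 0.05 by edgeR: Ercc5 alone in senescent against control MEFs, no member in FV100 or FV300 against senescent MEFs, and 8 and 5 members in FV100 and FV300 against control.

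The second comparison asked what Fucoidan-FV did to these genes in senescent MEFs. No member passed the threshold at either dose by edgeR. At 100 µg/mL this is 0 of 31 higher, 0 lower and 0 DEGs, against 1.14%, 2.89% and 2.69% of all genes tested, and at 300 µg/mL 0 higher, 0 lower and 0 DEGs, against 0.778%, 1.12% and 1.64%. DESeq2 called Ercc1 and Ercc2 lower at 100 µg/mL, where it called 5.07% of the genes it tested lower and 4.26% higher, and Ercc1 lower at 300 µg/mL, where it called 3.41% lower and 2.94% higher. At an unadjusted p under 0.05 there were 6 members lower and 0 higher in FV100, where 12.7% and 7.13% of all genes were, and 3 lower and 0 higher in FV300, where 8.97% and 6.31% of all genes were. The median of the members was -0.19 on the log2 scale in FV100 and -0.05 in FV300, beside -0.02 and 0.00 for all genes tested, and 25 and 19 of the 31 lay below 0. Without senescent mouse 6 the medians were -0.070 and -0.072, 19 and 18 lay below 0, and no member was called by edgeR at either dose.

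Ercc1, which with XPF cuts 5′ of the lesion, was at 21.7, 20.9 and 21.1 CPM in FV100 mice 4, 5 and 6 and at 30.4, 18.8 and 17.6 CPM in FV300 mice 4, 5 and 6. All 6 treated samples were under the lowest senescent sample (32.2 CPM), although FV300 mouse 4 came close to it. The log2 fold change against senescent MEFs was -1.10 ± 0.31 in FV100 (edgeR adjusted p = 0.0633, DESeq2 adjusted p = 0.0240) and -1.03 ± 0.31 in FV300 (0.114 and 0.0302). Without senescent mouse 6, the highest Ercc1 value of the series, it was -0.60 (adjusted p = 0.312) and -0.65 (adjusted p = 0.317) by edgeR.

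Its neighbour Ercc2 was at 18.7, 21.8 and 18.9 CPM in FV100 and at 24.3, 22.6 and 22.3 CPM in FV300 mice 4, 5 and 6. In CPM, every treated sample lay under every senescent sample, and every senescent sample under every control sample. In TPM, Ercc2 ran from 14.9 to 18.6 in senescent, 10.2 to 15.3 in FV100 and 14.5 to 19.99 in FV300. By that measure both treated groups overlapped with senescent MEFs, and FV300 overlapped with control MEFs (18.7 to 23.9 TPM). Against senescent MEFs the log2 fold change was -0.61 ± 0.20 in FV100 (edgeR adjusted p = 0.0964, DESeq2 adjusted p = 0.0275) and -0.39 ± 0.19 in FV300 (0.363 and 0.195). Without senescent mouse 6 it was -0.40 (adjusted p = 0.336) and -0.29 (adjusted p = 0.602). Exons of the opposite-strand genes Gm26852 and Klc3 together cover 62.6% of the Ercc2 exonic bases, and those of D830036C21Rik and Polr1g together 14.7% of the Ercc1 exonic bases, and whether reads were counted by strand is not given in the sources used here. Klc3 was at 2.46 to 16.1 CPM over all samples and Polr1g at 1.90 to 16.003 CPM, and neither passed the threshold in a main comparison. Gm26852 and D830036C21Rik did not pass the filter on low counts.

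**Figure D4:**
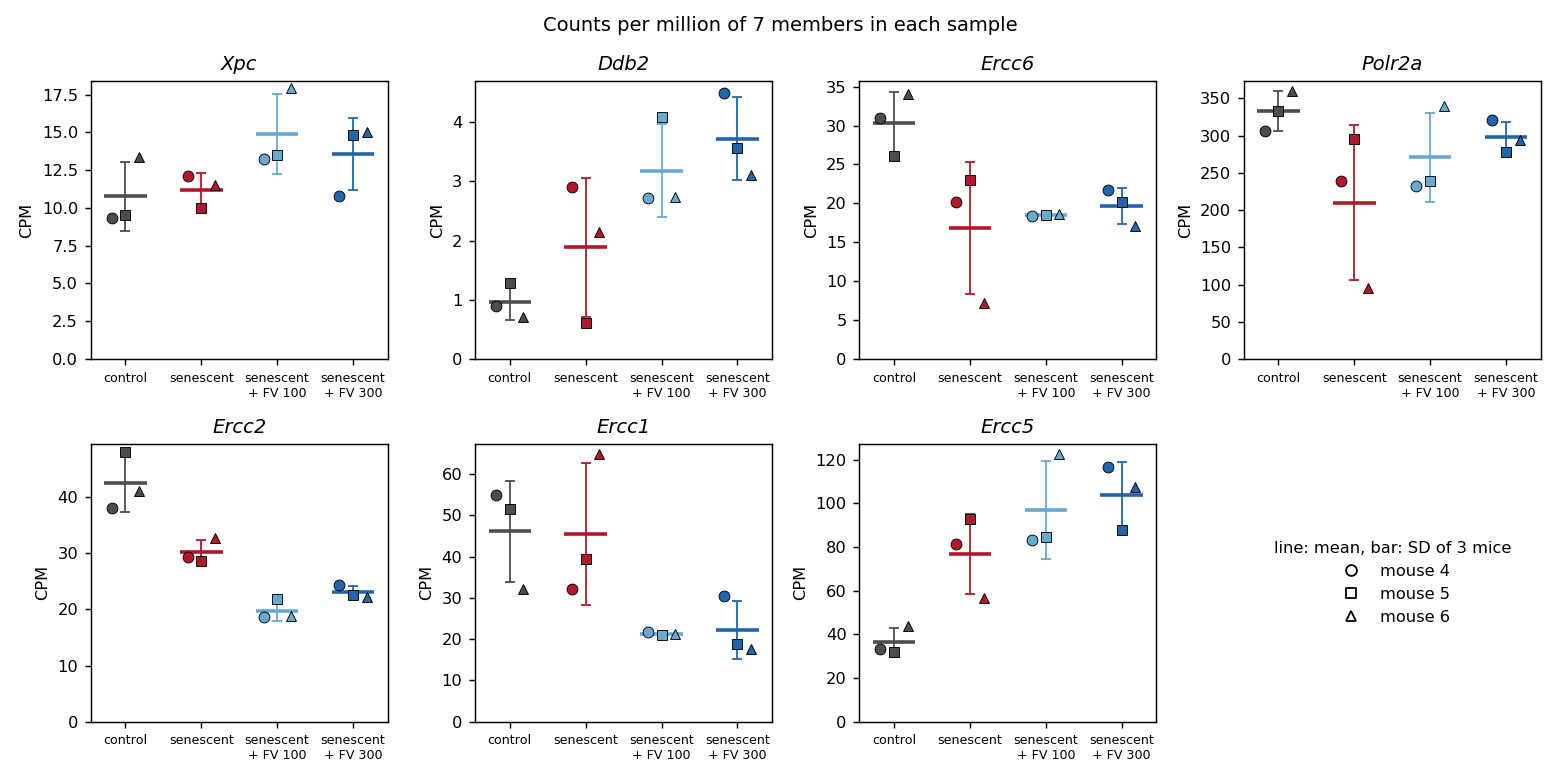
CPM (vertical axes, from 0) of 7 members in each sample, with control, senescent, FV100 and FV300 groups on the horizontal axes, 1 symbol shape per mouse, the mean as a line and the SD over 3 mice as a bar. Ercc2 steps down in CPM from control to senescent to treated samples without overlap, while in TPM (not drawn) its treated and senescent samples overlapped. Ercc5 steps up from control, and senescent mouse 6 (red triangle) lies far below its group for Ercc6 and Polr2a and above it for Ercc1.

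Ercc5 under treatment was at 83.2, 84.5 and 122.6 CPM in FV100 and at 116.7, 87.6 and 107.5 CPM in FV300 mice 4, 5 and 6. In CPM these values overlapped with those of senescent MEFs, with log2 fold changes of 0.33 ± 0.23 (adjusted p = 0.474) and 0.44 ± 0.23 (adjusted p = 0.413). In TPM, Ercc5 ran from 16.8 to 38.4 in senescent, 46.3 to 56.6 in FV100 and 42.5 to 45.2 in FV300. Those ranges did not overlap with senescent MEFs, a difference between measures that was not tested. Xpc was at 13.2, 13.5 and 17.9 CPM in FV100 and at 10.8, 14.8 and 15.1 CPM in FV300. All FV100 samples were above all senescent ones for Xpc in CPM, while in TPM they lay inside the senescent range (6.87 to 7.33 against 3.49 to 9.47). The log2 fold change of 0.41 ± 0.27 had an adjusted p of 0.444, and that of FV300 was 0.27 ± 0.27 (adjusted p = 0.712).

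Ddb2 was at 2.72, 4.09 and 2.73 CPM in FV100 and at 4.50, 3.56 and 3.11 CPM in FV300 mice 4, 5 and 6. The FV300 samples were all above the senescent ones, FV100 overlapped with them, and the log2 fold changes were 0.75 ± 0.57 (adjusted p = 0.511) and 0.98 ± 0.57 (adjusted p = 0.462). Ercc6 was at 18.4, 18.5 and 18.7 CPM in FV100 and at 21.8, 20.1 and 17.1 CPM in FV300, all inside the senescent range. Its log2 fold changes of 0.14 and 0.23 turned to -0.07 and -0.09 without senescent mouse 6 (adjusted p = 0.883 and 0.940).

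Polr2a was at 233, 239 and 340 CPM in FV100 and at 320, 278 and 294 CPM in FV300 mice 4, 5 and 6. In CPM both groups overlapped with senescent MEFs, and the log2 fold changes of 0.37 (adjusted p = 0.564) and 0.50 (adjusted p = 0.496) were 0.15 and 0.20 without senescent mouse 6. In TPM, Polr2a ran from 17.2 to 63.6 in senescent, 71.7 to 85.2 in FV100 and 76.05 to 81.2 in FV300, without overlap. This difference between measures was not tested. Of the other sensing genes, Elof1 had the lowest values, -0.72 (adjusted p = 0.177) and -0.52 (adjusted p = 0.427), and Uvssa, which recruits TFIIH, the highest, 0.52 and 0.65 (adjusted p = 0.482 and 0.450). Senescent mouse 6 was the highest of its group for Elof1 and the lowest for Uvssa, and without it Elof1 gave -0.19 and -0.075 (adjusted p = 0.616 and 0.941) and Uvssa 0.34 and 0.38 (adjusted p = 0.602 and 0.725). Elof1 shares 11.4% of its exonic bases with Cnn1 on the opposite strand, and Cnn1 fell by 1.21 at 100 µg/mL (adjusted p = 0.0196) and by 1.22 at 300 µg/mL (adjusted p = 0.0269) on the log2 scale. Its part in the Elof1 values was not tested.

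Rbx1, the RING subunit of the CUL4 ligase, was at 52.7 to 62.1 CPM in all 6 treated samples and at 66.3 to 111 CPM in senescent MEFs, with log2 fold changes of -0.56 (adjusted p = 0.130) and -0.58 (adjusted p = 0.157). The highest senescent value was that of mouse 6, and without it the log2 fold changes were -0.17 (adjusted p = 0.548) and -0.30 (adjusted p = 0.405). The TFIIH genes other than Ercc2 ran from -0.50 (Gtf2h4 and Gtf2h5) to -0.03 (Gtf2h1) in FV100 and from -0.59 (Gtf2h4) to 0.20 (Gtf2h3) in FV300. The CDK-activating kinase genes were between -0.31 and -0.01, Xpa at -0.16 and -0.34, and Ercc4 at -0.22 and 0.35 in FV100 and FV300. Without senescent mouse 6, the TFIIH genes other than Ercc2 ran from -0.15 (Ercc3) to 0.17 (Gtf2h2) in FV100 and from -0.28 (Gtf2h4) to 0.25 (Gtf2h3) in FV300, the kinase genes from -0.11 to 0.12 over both doses, Xpa was at 0.19 and -0.072, and Ercc4 at 0.13 and 0.58.

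No member passed the threshold between the doses. In FV300 against FV100, 0 of 31 members were called by edgeR, against 0.00665% of all genes tested, 0 had an unadjusted p under 0.05, against 0.625%, and DESeq2 called 0, against 0.00368%. The log2 fold changes ran from -0.18 (Xpa) to 0.57 (Ercc4), with a median of 0.13 beside 0.08 for all genes.

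Treated senescent MEFs were also set against control MEFs, a comparison that holds etoposide and Fucoidan-FV together and shares its control samples with the first. In FV100, 2 of 31 members were higher and 6 lower, where 12.2% and 14.4% of all genes tested were. In FV300, 2 were higher and 3 lower, where 12.4% and 12% of all genes were. DESeq2 called 3 higher and 5 lower in FV100 and 3 higher and 7 lower in FV300, with Uvssa as the added higher gene. Of the genes it tested, DESeq2 called 16.5% higher and 13.5% lower in FV100, and 15.5% higher and 13.3% lower in FV300. With the mouse as a block, FV100 had 1 higher member (Ddb2 was lost) and FV300 had 5 lower ones (Elof1 and Gtf2h4 were added).

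The higher members were Ercc5 and Ddb2 at both doses. Ercc5 was 2.66-fold higher in FV100 (log2 fold change 1.41 ± 0.24, adjusted p = 0.000833) and 2.86-fold higher in FV300 (1.51 ± 0.24, adjusted p = 0.000566). Ddb2 was 3.29-fold higher in FV100 (1.72 ± 0.58, adjusted p = 0.0444) and 3.84-fold higher in FV300 (1.94 ± 0.59, adjusted p = 0.0281). All 6 treated samples were above all control samples for both genes. Ddb2 stayed low in absolute terms, at 75 to 116 counts per treated sample and 15 to 65 per control mouse, where mouse 5 is the sum of 2 libraries. Scaled to library size, it was at 0.705 to 1.28 CPM in control and at 2.72 to 4.50 CPM in treated samples. Its call was lost in FV100 whenever any 1 sample of the pair was left out (adjusted p = 0.0519 to 0.152). In FV300 it was lost in 5 of those 6 fits (adjusted p up to 0.0792). Exons of Acp2 on the opposite strand cover part of Ddb2 (46.3% of its exonic bases are shared with Acp2 and A330069E16Rik together), and Acp2 was itself higher in senescent MEFs by 0.77 (adjusted p = 0.0181), at 56.9 to 147 CPM over all samples. Its part in the Ddb2 values was not tested.

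The lower members at both doses were Ercc1, Ercc2 and Rad23b. Ercc2 stood at 0.466 of its control level in FV100 (log2 fold change -1.10 ± 0.20, adjusted p = 0.00123) and at 0.543 in FV300 (-0.88 ± 0.20, adjusted p = 0.00530), and was called in all 16 alternative fits of each comparison. Ercc1 stood at 0.461 (-1.12 ± 0.31, adjusted p = 0.0170) and 0.483 (-1.05 ± 0.31, adjusted p = 0.0244) and was called in 11 of 16 alternatives at each dose, but in 2 of 6 fits with a sample left out. Rad23b gave -0.63 (adjusted p = 0.0230) and -0.69 (adjusted p = 0.0154), and was called in 1 of 6 fits with a sample left out in FV100 and in 3 of 6 in FV300. Without control mouse 4 its FV100 value was -0.34 (adjusted p = 0.299). In FV100 the sensing factors Elof1 (-0.97, adjusted p = 0.0232) and Tcea1, the TFIIS elongation factor (-0.78, adjusted p = 0.0275), and Cops5, the catalytic signalosome subunit (-0.58, adjusted p = 0.0479), were lower as well. With a sample left out, Elof1 was called in 1 of 6 fits, Tcea1 in 3 of 6 and Cops5 in 1 of 6, and DESeq2 did not call Cops5 (adjusted p = 0.0660). Without control mouse 6, Tcea1 gave -0.39 (adjusted p = 0.186) and Cops5 -0.34 (adjusted p = 0.205). Leaving out 1 sample took the number of lower members to between 1 and 5 in FV100 and between 1 and 4 in FV300. Long transcripts stood lower against short ones in control mice 4 and 5 than in any treated sample. Of the called members, Ercc1, Rad23b, Elof1 and Cops5 have short transcripts and were lower, and Ercc5 has long ones and was higher. Ercc2, Tcea1 and Ddb2 lay between these lengths, and the part of transcript length in these calls was not tested.

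The genes that complete repair were called more often in senescent MEFs, a difference in share that was not tested. Of 21 gap filling and ligation genes, 13 fell and 1 rose in senescent against control MEFs, and their median was -0.94 on the log2 scale. Of all genes tested, 5.63% were lower and 6.11% higher, and 1 of 31 members was called. The gap filling and ligation genes also serve DNA replication. Mki67 was lower in the same samples, and its bearing on their fall was not tested. Pole, the catalytic subunit of polymerase epsilon, went from 45.02 ± 14.5 to 3.45 ± 1.47 CPM (mean ± SD, n = 3), a log2 fold change of -3.70 ± 0.46 (adjusted p = 0.000256). Its accessory subunit gene Pole2 fell by 3.21 (adjusted p = 0.00452) and Lig1, DNA ligase I, fell by 2.66 on the log2 scale (adjusted p = 0.000204). Without senescent mouse 6 the number that fell was 14.

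Polk, the translesion polymerase that also works in NER gap filling, was the gene of this list that rose, by 1.38 on the log2 scale (adjusted p = 0.0329). It was at 87.0 and 88.9 CPM in senescent mice 4 and 5 but at 22.8 CPM in senescent mouse 6, inside the control range of 19.5 to 30.1 CPM. Without that mouse the value was 1.79 (adjusted p = 0.000120), and with the mouse as a block it was 1.301 (adjusted p = 0.0749).

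Under treatment, Rpa1, which encodes the large subunit of the single-strand binding protein RPA, fell at both doses. It was at 235 ± 24.7 CPM in control, 141 ± 27.2 in senescent, 63.3 ± 7.81 in FV100 and 67.5 ± 2.68 CPM in FV300 MEFs. Against senescent MEFs the log2 fold changes were -1.16 ± 0.18 (adjusted p = 0.00542) and -1.07 ± 0.18 (adjusted p = 0.0103), and without senescent mouse 6 they were -0.87 and -0.87 (adjusted p = 0.00621 and 0.00721). Rfc5, a clamp loader subunit gene, fell in FV100 by 1.51 (adjusted p = 0.0178), and by 1.00 without senescent mouse 6 (adjusted p = 0.0407). These were the calls in this list: 2 of 21 lower in FV100 and 1 of 21 in FV300. Of all genes tested, 2.89% and 1.12% were lower. The medians of the list were -0.26 and -0.32, and without senescent mouse 6 they were -0.038 (Pold3) and -0.056 (Rfc1).

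The calls by edgeR with all mice in the other lists follow. Of all genes tested, 6.11% were higher and 5.63% lower in senescent MEFs, 2.89% lower in FV100 and 1.12% lower in FV300. Of 18 further RNA polymerase II and elongation genes, Tcea3 rose in senescent MEFs, by 3.07 (adjusted p = 0.0217; 10.1 to 12.7 CPM against 0 to 2.98 CPM in control), and Polr2e fell by 1.16 in FV100 (adjusted p = 0.0432) and by 1.24 in FV300 (adjusted p = 0.0465). Polr2e was at 122 CPM in senescent mouse 6 and at 50.8 and 54.3 CPM in mice 4 and 5, and without mouse 6 the values were -0.49 (adjusted p = 0.105) and -0.67 (adjusted p = 0.0422); with the mouse as a block the FV300 value had an adjusted p of 0.0541. Of 13 further signalosome and CUL4 genes, Ube2m, the NEDD8-conjugating enzyme, fell by 0.93 in FV100 (adjusted p = 0.0308), and gave -0.51 without senescent mouse 6 (adjusted p = 0.0622) and an adjusted p of 0.0507 with the mouse as a block. Of 13 accessory genes, Prpf19 fell by 0.62 in senescent MEFs (adjusted p = 0.0390, and 0.0558 with the block). DESeq2 called 5 of this list lower there, and 7.71% of all the genes it tested. Without senescent mouse 6, edgeR also called Cops8, Nedd8, Polr2c, Polr2e, Polr2i, Chd1l and Aqr lower in senescent MEFs. Their log2 fold changes in that fit ran from -1.67 (Chd1l) to -0.45 (Nedd8). The share of all genes called lower in that fit is not given here.

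**Figure D5:**
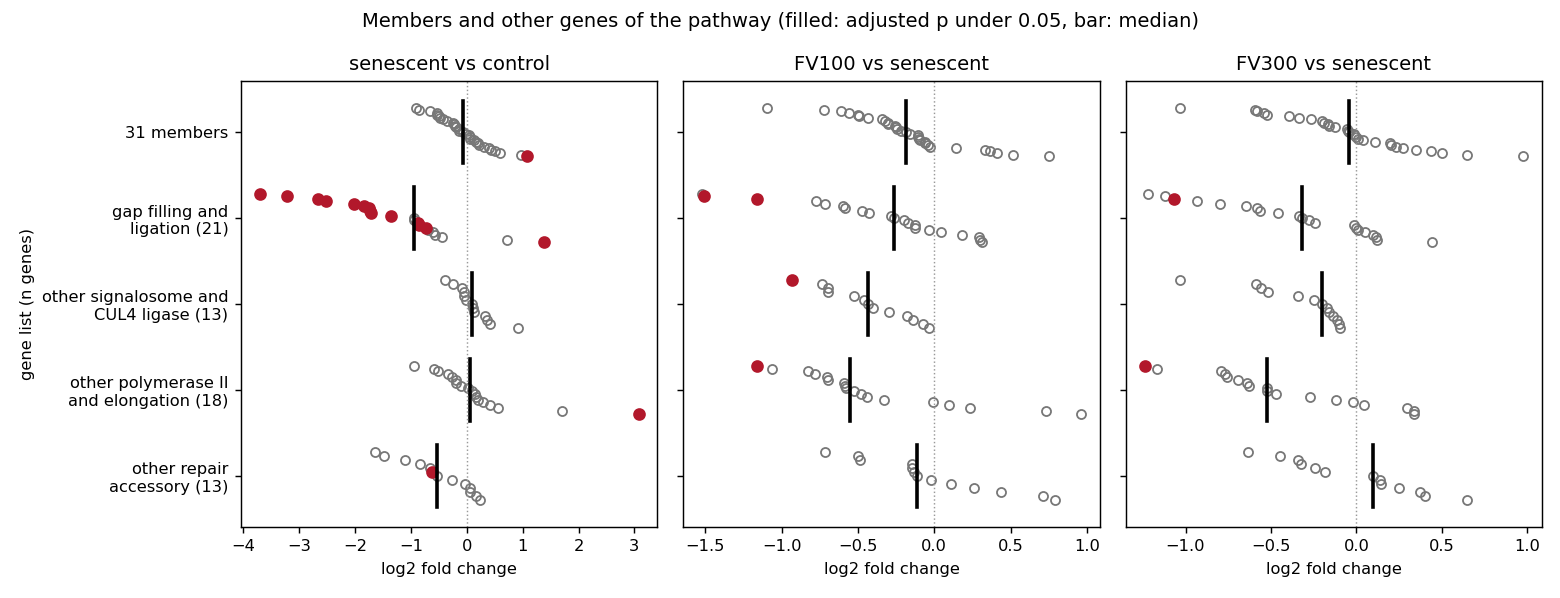
Log2 fold change (horizontal axes, scaled to each panel) of the 31 members and of 4 lists of other genes of the pathway (rows), in senescent against control, FV100 against senescent and FV300 against senescent MEFs. Filled points have an adjusted p under 0.05 and bars are medians: the gap filling and ligation list lies low in senescent MEFs (median -0.94, 13 of 21 lower), while the members lie around 0 (median -0.07).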

How the data were processed

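A total of 13 RNA libraries were analysed from gene-level files as 12 samples, since control mouse 5 has 2 libraries, and the labels do not say whether these come from 1 culture. The authors made the expected counts with RSEM 1.3.1 after mapping reads with STAR 2.7.11b to GRCm39, with read checks by FastQC 0.12.1 and trimming by Trimmomatic, and deposited the counts per library without normalization. The deposited TPM values come from the same RSEM runs and were used for levels between genes. For a few members the overlap of groups is also given in TPM, without a test. The library kit marks strand, while which strand option RSEM was run with is not given in the sources used here. RSEM splits reads shared between genes and transcripts by estimate, so counts of overlapping genes are uncertain.

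Expected counts were rounded to whole numbers, the libraries of control mouse 5 were summed, although their counts differed (chi-square per gene 159, against 58.2 to 170 between other pairs of control libraries), and genes were kept by filterByExpr in edgeR 4.0.16 (minimum count 10, minimum total 15) under R 4.3.3. The test was edgeR's quasi-likelihood test with TMM factors on all 12 samples, with Benjamini-Hochberg adjustment over the 15034 genes tested, and a gene was called at an adjusted p under 0.05 (a DEG also at a log2 fold change beyond 1 in size). CPM values use the TMM-scaled totals, and every CPM is a mean or sample value over the 3 mice. DESeq2 1.42.0 was an alternative. The code was tested on simulated data.

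Mouse numbers recur in every group of the labels and were read as shared animals, so fits with the mouse as a replicate block were run. Deviations of the same mouse from the group means correlated between -0.32 and 0.67 over 18 pairs (median -0.03), 8 of them over 0.1. P-values of the main fit rest on the spread within groups of 3 samples, estimated over all 4 groups together. Libraries also differed in the counts of genes whose annotation holds mostly 1 transcript, by -1.36 to 0.94 on the log2 scale over 1244 such genes. As an alternative, offsets were fitted for the share of exonic bases in a single transcript and for the number of exonic bases. Exonic bases are those of all exons of a gene, not the mean transcript length by which senescent mouse 6 stood apart.

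Positions, transcripts and promoters are from GRCm39 and GENCODE M39. Named genes are members called by either tool in a comparison with senescent or of senescent cells, with Ercc1, Xpc, Ddb2, Ercc6 and Polr2a always, and, of each other list, the called gene with the largest rise and fall in each main comparison (up to 3 where more than 5 were called). Members and lists were chosen with earlier results of these data known. FPKM values and the series-wide count table, which repeats the expected counts, were not used.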

Additional observations from a re-analysis of the deposited data

How the results depend on the processing

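Ercc5 in senescent against control MEFs, and Ercc2 and Ercc5 in both treated groups against control, kept their direction under all 16 alternatives of each comparison. Ercc2 and Ercc5 against control also kept their call, and Ercc5 in senescent MEFs lost it in 1, the fit on the 2 groups compared, which left 0 members higher. Members lower in senescent MEFs, 0 in the report, were 1 by DESeq2 (Ercc2), 1 without a filter (Polr2a), 5 with offsets for single-transcript share and exonic bases (Ercc6, Usp7, Polr2a, Tcea1, Ercc2), 4 with offsets and the replicate block, and 0 to 1 with a sample left out. Members lower against senescent MEFs were 2 (FV100) and 1 (FV300) by DESeq2 and 1 and 1 without a filter. Against control, members higher in FV100 were 1 with library 5(1) of control mouse 5 alone, 1 with the replicate block, 5 with offsets and 1 to 3 with a sample left out. In FV300 they were 4 with offsets, 4 with offsets and the block, and 1 to 2 with a sample left out. Members lower were 1 to 5 in FV100 and 1 to 4 in FV300 with a sample left out. In FV300 they were also 7 by DESeq2, 5 in the fit of 2 groups, 5 with the replicate block, 10 with offsets and 9 with offsets and the block. The alternatives for the comparisons with control and for the other genes of the pathway were chosen after seeing the data. In the 65 other genes, 2 higher and 14 lower in senescent MEFs became 0 and 9 in the fit of 2 groups, 1 higher with the block, and 0 to 2 higher and 11 to 22 lower with a sample left out, the most without senescent mouse 6. The 4 lower in FV100 became 7 by DESeq2, 0 in the fit of 2 groups and 1 to 5 with a sample left out, and the 2 lower in FV300 became 6, 0 and 0 to 4, with 1 for library 5(2) alone and 1 with the block. Values near 0 changed sign: Ercc1 in senescent MEFs (-0.02) was 0.14 with library 5(2) alone, 0.025 with offsets, 0.051 with offsets and the block, and -0.36 to 0.16 with a sample left out, Xpc there was -0.041 to 0.26, and Ercc6 against senescent MEFs was -0.070 to 0.57 in FV100 and -0.086 to 0.56 in FV300. The cause of each change was not tested. Shares of all genes called are given only for the main edgeR fit and DESeq2, so counts from the other fits stand without one. The paired analysis changed no other member's call: with the replicate block, Ercc5 in senescent MEFs rose by 1.10 (adjusted p = 0.0199). At 3 mice a group, with Ddb2 at 14 to 116 counts a sample, a missed threshold does not show equal levels.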

Other observations

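Uvssa, which brings TFIIH to a stalled polymerase, was at 11.7, 10.9 and 22.9 CPM in control mice 4, 5 and 6, at 25.2, 25.3 and 35.4 CPM in FV100 and at 31.6, 31.3 and 30.98 CPM in FV300. All 6 treated samples lay above all control samples, and the log2 fold changes of 0.92 and 1.05 missed the threshold in edgeR (adjusted p = 0.0836 and 0.0554) and passed it in DESeq2 (adjusted p = 0.0473 and 0.0337). Ercc8, the CSA subunit of the ligase that acts on a stalled polymerase, was at 7.90, 6.28 and 3.15 CPM in control and at 2.09 to 4.01 CPM in all 9 etoposide-treated samples, with DESeq2 adjusted p = 0.0356 for FV300 against control and no call by edgeR (adjusted p = 0.0989).

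FV300 mouse 4 stood above its group for Ercc4, at 54.1 CPM against 26.99 and 30.4 CPM in mice 5 and 6, and for Gtf2h3, at 43.3 against 17.7 and 21.98 CPM. These genes and this library are named after their values were seen, and groups of 3 were not tested for outliers.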
